A study of Mus musculus with 12 samples.

Results

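CpG methylation of Tet2 knockout and Nras G12D bone marrow LSK cells was compared, with 3 libraries per genotype. These are 6 of the 12 libraries at hand, chosen by genotype label alone; the other 6 are double mutants, 3 nonleukemic and 3 leukemic. LSK cells lack lineage markers and carry Sca1 and cKit, a sorted fraction that holds blood stem cells and early progenitors. One group carried Tet2 loss and the other Nras G12D, as conditional alleles in the blood system of C57BL/6 mice of 6 months. The Cre driver and its induction are not given in the sources used here. No group without a mutation was analysed here, so a difference shows only how the genotypes stand to each other, not which of them moved.

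Tet2 is a dioxygenase that oxidises 5-methylcytosine, a step on the way to removal of the methyl group, and it is often mutated in clonal haematopoiesis and myeloid leukemia. Nras is a small GTPase that passes growth factor signals to the MAPK cascade, and the G12D form stays bound to GTP. In mammalian blood cells most isolated CpGs are methylated and most CpG islands are not, while enhancers and island edges often hold intermediate levels. Bisulfite reads do not separate 5-methylcytosine from 5-hydroxymethylcytosine, the first product of Tet2, so methylation here means the sum of both.

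Methylation was read by reduced representation bisulfite sequencing, in which DNA is cut with MspI and short fragments are converted and read. Coverage summed over listed cytosines was 96300485 to 126695756 in the 6 libraries. This sum counts a read at each listed cytosine it covers and is not a number of reads. The median reads per tested CpG ran from 67 to 96. In all, 969433 autosomal CpGs outside chromosome 3 had at least 10 reads in each of the 6 libraries. Chromosome 3 was left out because it carries Tet2 and Nras: of the CpGs listed only in Tet2 libraries, 133 of 246 lay there, and of those listed only in Nras libraries, 254. Mitochondrial CpGs, which should read as unmethylated, read at 0.222% to 1.002%. Of the stem and progenitor markers, only the promoters of Flt3, Meis1 and Gata2 could be read, and their group means were 0.101% to 0.510%. The T, B, myeloid and erythroid marker promoters were not read, so the makeup of the sorted cells was not checked by methylation.

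The libraries of the groups also differed outside the autosomes. Tet2 knockout replicates 1 and 2 listed 360 and 251 positions on the Y chromosome, and the other 4 libraries listed 6 to 13. CpG-dense positions of the X chromosome were methylated at 25.79%, 24.98% and 24.74% in the Nras G12D libraries and at 3.23%, 3.48% and 25.4% in the Tet2 knockout libraries. Sex chromosome content therefore differed between the groups, and only Tet2 knockout replicate 3 matched the Nras G12D libraries. Differences over all CpGs, by baseline level and at sparse CpGs, counts of calls and some named tiles and promoters are also given below without the other Tet2 libraries. The remaining results are not. These include levels crossed with density, shares of tiles, distance from islands, single chromosomes and promoter classes. The labels do not say whether replicates were separate animals. By its sex chromosome values, Tet2 knockout replicate 3 is not a repeat of the sample behind replicate 1 or 2. A p-value here speaks of the spread among libraries. Within Tet2 knockout that spread includes unlike sex chromosome content, and elsewhere it may be technical.

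Methylation was higher in Tet2 knockout than in Nras G12D cells over the genome as sampled, by under 1 percentage point. The library means over all tested CpGs were 36.3%, 36.4% and 36.7% in Nras G12D and 37.2%, 37.6% and 37.1% in Tet2 knockout. Every Tet2 library lay above every Nras library. The difference was 0.829 points, with means of 36.5% ± 0.211 and 37.3% ± 0.272 (SD, n = 3 each). A two-sided exact permutation test over libraries gave p = 0.1, the smallest value that 3 libraries against 3 can give. Without the Tet2 libraries that list Y positions the difference was 0.613 points.

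Per CpG, the difference in points was largest at CpGs of intermediate level with all 6 libraries. Tested CpGs were classed by the mean of both group means as under 20% (568909 CpGs), 20 to 80% (69277) or over 80% (331247). In the intermediate class, 7.15% of all tested CpGs, the Nras G12D libraries read 51.8%, 51.9% and 51.2% and the Tet2 knockout libraries 56.0%, 58.0% and 55.1%. These groups did not overlap, and Tet2 knockout was higher by 4.72 points (exact permutation p = 0.1, two-sided, n = 3 each). Since highly methylated CpGs are more numerous, they carried 47.9% of the overall difference, the intermediate class 40.7% and the low class 11.4%.

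Highly methylated CpGs read 93.7%, 93.9% and 94.6% in Nras G12D and 95.3%, 95.7% and 94.8% in Tet2 knockout. The groups again did not overlap, although Nras replicate 3 and Tet2 replicate 3 stood close together, and the difference was 1.16 points (exact permutation p = 0.1, two-sided, n = 3 each). Without Nras replicate 1 it was 0.719 points. CpGs under 20% read 1.005%, 1.021% and 1.203% against 1.13%, 1.30% and 1.27%. Here the groups overlapped, and the difference of 0.161 points was within the spread (exact permutation p = 0.2, two-sided, n = 3 each). It was 0.0924, 0.0919 and 0.0357 points without Tet2 replicate 1, 2 and 3, and 0.244 points without Nras replicate 3.

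With all 6 libraries, the intermediate class stood apart from both others in points. Its difference exceeded that of the low class by 4.56 points and that of the high class by 3.56 points, with no overlap between libraries (exact permutation p = 0.1 for each, two-sided, n = 3 per group). On a log odds scale the order was another: the difference in natural log odds was 0.14 under 20%, 0.19 at 20 to 80% and 0.23 over 80%. That order in points also turned without the Tet2 libraries that list Y positions, at 1.37 points for 20 to 80% and 1.54 points for over 80%. With the nonleukemic double mutant setting the classes, the same libraries gave 3.12 and 0.767 points. The order of the classes thus depends on the scale, the libraries and the way classes are set.

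In steps of 10 points of baseline level, the difference was 0.0466 points in the lowest bin, 5.87 points at 50 to 60% and 0.944 points in the highest bin. At 50 to 60%, the Nras G12D libraries read 52.0%, 52.0% and 52.4% and the Tet2 knockout libraries 56.7%, 61.0% and 56.4%. Among the CpGs of that bin, 64.1% were higher in the mean of Tet2 knockout than in that of Nras G12D. The shift was therefore spread over many CpGs and was not a full gain at a few.

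How large the intermediate difference is depends on how the class is set and on which libraries enter. With classes set on the nonleukemic double mutant, which is in neither group, it was 4.46 points, and with classes set on the leukemic double mutant 3.23 points. With Tet2 replicate 3 alone against the Nras G12D libraries it was 1.37 points when the remaining groups set the classes and 3.12 points when the nonleukemic double mutant did. Without Tet2 replicate 2, the highest library of this class, it was 3.52 points. That library also listed the fewest positions of those compared, 1338965, and stood alone at the most CpGs. It read under 10% at 532 CpGs where the others read over 70%, and over 70% at 587 where they read under 10%. Next came Nras replicate 3, at 337 and 37. Over the 60576 intermediate CpGs covered in all 12 libraries, the nonleukemic double mutant read 54.7% ± 0.403 and the leukemic one 46.3% ± 1.35 (SD, n = 3 each). Nras G12D read 51.3% ± 0.245 and Tet2 knockout 56.0% ± 1.62 there. The class was set on the Nras and Tet2 values, so the place of the double mutants beside these groups is no result.

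**Figure D1:**
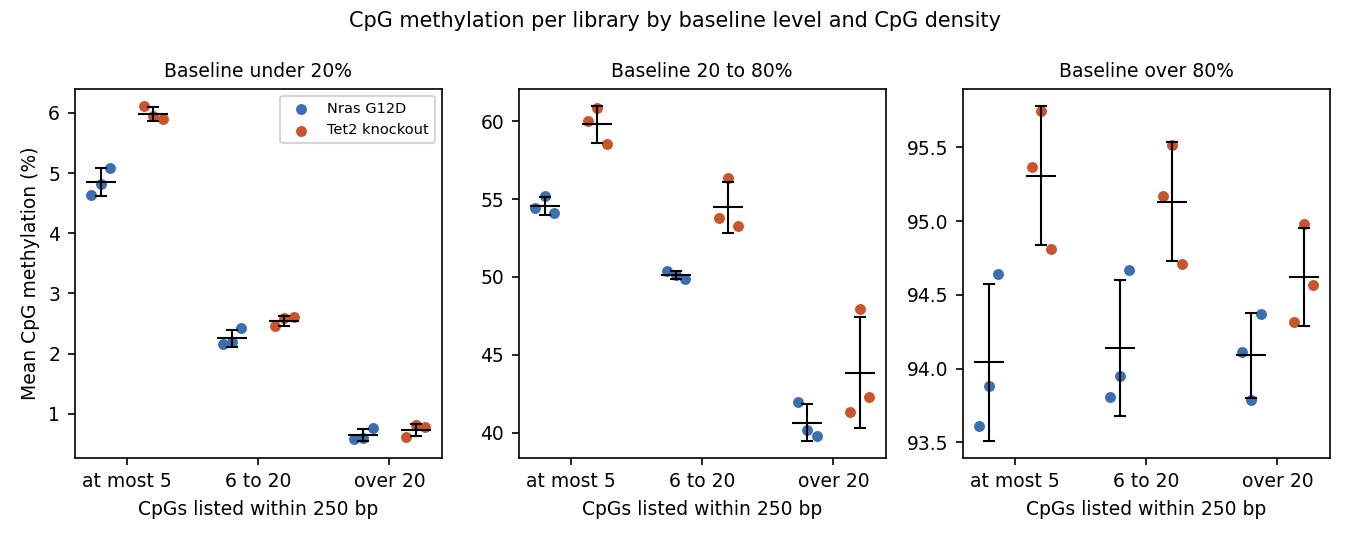
Mean CpG methylation in percent (vertical axis, a separate range per panel) by number of CpGs listed within 250 bp (horizontal axis), in panels by baseline level. Points are libraries, long bars are group means and error bars are SD (n = 3); at 20 to 80% the groups are apart in the 2 sparser classes and overlap in CpG-dense positions.

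CpG density was the second axis. It was counted from positions alone, as the CpGs listed in any library within 250 bp, and split into sparse (at most 5), middle (6 to 20) and dense (over 20). CpGs that no library listed are not counted, so a sparse position can lie among more CpGs than this count gives. Sparse CpGs read 82.3%, 82.7% and 83.1% in Nras G12D and 84.6%, 85.0% and 83.9% in Tet2 knockout. The groups did not overlap, and the difference was 1.80 points (exact permutation p = 0.1, two-sided, n = 3 each). At middle density it was 1.07 points, again with no overlap.

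Dense CpGs, which make up CpG islands and 47.2% of the tested CpGs, read 2.22%, 2.20% and 2.36% against 2.25%, 2.53% and 2.41%. The groups overlapped, and the difference of 0.137 points did not exceed the spread (exact permutation p = 0.2, two-sided, n = 3 each). It was 0.0735 points without Tet2 replicate 2 and 0.211 points without Tet2 replicate 1. Most dense CpGs are unmethylated, however, so density and level move together and were crossed.

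Within the intermediate class, Tet2 knockout was higher by 5.24 points at sparse, 4.37 points at middle-density and 3.21 points at dense CpGs. The 5955 dense intermediate CpGs read 42.0%, 40.2% and 39.8% in Nras G12D and 41.3%, 48.0% and 42.3% in Tet2 knockout. One Tet2 library lay among the Nras libraries there, and Tet2 replicate 2 stood above the rest. The difference between sparse and dense within the intermediate class was 2.03 points and not beyond the spread between libraries (exact permutation p = 0.4, two-sided, n = 3 each). In finer steps of density, intermediate CpGs with 0 or 1 neighbour differed by 5.37 points, those with 2 or 3 by 5.26, 4 or 5 by 5.17, 6 to 10 by 4.75, 11 to 20 by 3.67, 21 to 40 by 3.31 and 41 or more by 2.84. The difference thus ran down with density in the means, with overlap between the groups in the last pair of steps, while its trend was not separable from the spread between libraries.

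Under 20% the sparse and dense CpGs were apart, although their baseline levels differ as well. The 17710 sparse CpGs of low level read 4.63%, 4.82% and 5.09% in Nras G12D and 6.12%, 5.94% and 5.89% in Tet2 knockout. The groups did not overlap, and the difference was 1.14 points. Dense CpGs of low level differed by 0.0909 points with overlap, and the gap between sparse and dense was 1.05 points larger in Tet2 knockout (exact permutation p = 0.1, two-sided, n = 3 each).

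**Figure D2:**
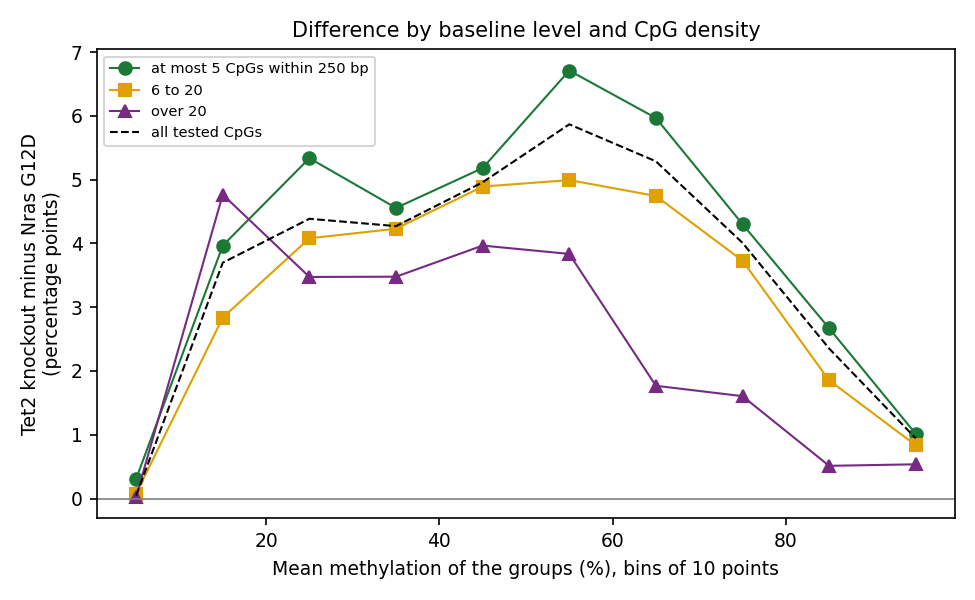
Tet2 knockout minus Nras G12D in percentage points (vertical axis) against the mean methylation of both groups in bins of 10 points (horizontal axis), for 3 density classes and for all tested CpGs. The line for all CpGs peaks at 5.87 points in the bin from 50 to 60% and is near 0 in the lowest bin.

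The intermediate difference was also split by distance from CpG islands. Taking dense positions as islands, intermediate CpGs differed by 3.87 points within 500 bp of a dense position, by 4.16 points from there to 2000 bp, by 5.28 points to 10000 bp, by 5.22 points to 50000 bp and by 4.48 points farther away. In each of these 5 steps every Tet2 library lay above every Nras library. The intermediate class also differed on each of the 18 autosomes tested, from 3.89 points on chromosome 13 to 6.11 points on chromosome 16, and on each of them the groups did not overlap. Tested CpGs were also split into 4 near equal classes by reads. From the fewest reads to the most, the difference over all CpGs was 1.15, 0.956, 0.703 and 0.510 points, while mean methylation in Nras G12D ran from 57.5% to 15.5%. Among the intermediate CpGs of these classes (22421, 20811, 15702 and 10343) it was 5.17, 4.45, 4.48 and 4.65 points.

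Single CpGs gave few calls at this depth of replication. Calls took a quasi-binomial model of the reads of each CpG, a Benjamini-Hochberg adjusted p under 0.05 and group means at least 25 points apart. This called 1 CpG higher (0.000103% of those tested) and 1 lower (0.000103%) in Tet2 knockout. Both counts were 0 when the prior spread was estimated from all CpGs, as first specified, and limma on log2 ratios also gave 0. At an unadjusted p under 0.05 the model found 20438 CpGs higher (2.11%) and 7405 lower (0.764%), and limma 32626 and 13086.

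The CpG called higher lies at chr10:80867623 (mm9). It read 14.8%, 24.9% and 25.2% in Nras G12D and 79.2%, 96.7% and 79.4% in Tet2 knockout, on 68 to 214 reads. The groups were far apart, by 63.5 points (adjusted p = 0.0269, quasi-binomial model). The CpG called lower, at chr2:10280262, read 100% in each Nras G12D library and 29.5%, 13.6% and 32.0% in Tet2 knockout, on 45 to 236 reads (adjusted p = 0.0269). A change of the base itself at a single CpG reads like a change of methylation, and was not tested at either position.

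Which libraries entered moved this count strongly. Leaving out Nras replicate 1, 2 or 3 gave 0 CpGs each, and leaving out Tet2 replicate 1, 2 or 3 gave 195, 77 and 271. The count of called CpGs is therefore no stable measure of the difference between the genotypes.

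Regions were read as tiles of 1000 bp with at least 3 tested CpGs, 89141 in all. No tile passed the same adjusted p together with 10 points of difference (0.0% in each direction), and the lowest adjusted p was 0.110. limma on log2 ratios also called 0. Without correction, 4677 tiles were higher (5.25%) and 747 lower (0.838%) in Tet2 knockout at p under 0.05, and 3884 and 1055 with limma. Leaving out Tet2 replicate 1, 2 or 3 called 1, 12 and 2 tiles, and a fit on all 12 libraries called 3. With Tet2 replicate 3 as the only Tet2 library, 33 tiles were called, but that library is then assumed to vary like the Nras G12D libraries.

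The tiles leaned to one side. Libraries of the groups did not overlap at 7978 tiles higher in Tet2 knockout (8.95%) and at 2145 lower (2.41%). With a difference of at least 10 points these were 2083 (2.34%) and 244 (0.274%), and with at least 25 points 173 (0.194%) and 12 (0.0135%). The larger the difference asked for, the more one-sided the tiles became.

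Baseline level and density sorted these tiles as they sorted CpGs. Of the 11241 intermediate tiles, 11.2% were higher without overlap by at least 10 points and 1.07% were lower. Over 80% the shares were 1.36% and 0.202%, a class in which few tiles have room for 10 points more, and under 20% they were 0.440% and 0.0708%. Among intermediate tiles, sparse and middle-density ones had near equal shares higher, 11.5% and 11.2%, and dense ones 4.63% (12 of 259 tiles).

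**Figure D3:**
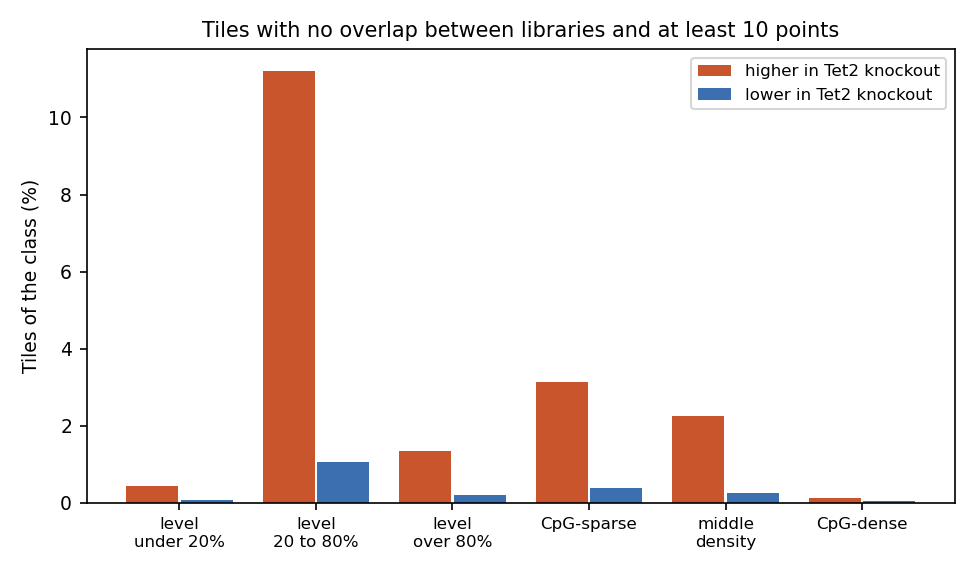
Share of tiles of each class in percent (vertical axis) whose libraries do not overlap between groups and differ by at least 10 percentage points, by baseline level and by CpG density (horizontal axis). Intermediate tiles have 11.2% higher and 1.07% lower in Tet2 knockout, and each class has more tiles higher than lower.

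Neighbours of the tiles higher in Tet2 knockout could be read only where the tile directly after was tested, at 295 of 2083 tiles. Of these, 14 (4.75%) were followed by another higher tile, so most were not. Over the 18783 pairs of adjacent tested tiles, the share beginning with a higher tile (295 pairs) was smaller than 4.75%. At the tiles higher in Tet2 knockout, the nonleukemic double mutant, which carries both changes, had a median of 72.5%. This lay between Nras G12D (61.9%) and Tet2 knockout (79.5%), and the leukemic double mutant had 56.4%. These medians are over the 2005 of 2083 tiles covered in all 12 libraries, which were chosen on the Nras and Tet2 values, so neither the gap between those groups nor a place between them is a result. Over all tiles covered, Nras G12D had a median of 87.7% and Tet2 knockout of 89.6%, and the double mutants had 89.0% without and 79.2% with leukemia.

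Tiles named here are the 8 higher and 8 lower in Tet2 knockout with the lowest p among those without overlap, at least 5 CpGs and at least 10 points, and none of them was called. The highest of them, chr10:80867000-80867999 (mm9), holds the called CpG. Over its 7 tested CpGs it read 33.5%, 39.7% and 41.9% in Nras G12D and 85.1%, 84.6% and 73.4% in Tet2 knockout. The difference was 42.7 points (adjusted p = 0.110, quasi-binomial model), and the nonleukemic double mutant stood between, at 61.6%, 62.8% and 55.2%. Within 1 Mb of it, 2 CpGs were listed in 1 group only. The nearest promoter that could be placed was that of Dohh, deoxyhypusine hydroxylase, 20321 bp away.

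A tile at chr15:12807000-12807999 read 33.0%, 52.2% and 44.5% against 83.6%, 76.9% and 91.2%, higher by 40.7 points (adjusted p = 0.245). The nearest promoter that could be placed was that of Drosha, the nuclease that cuts primary microRNA transcripts. That tile lies 52930 bp downstream of the Drosha start. The 12 CpGs of chr8:122715000-122715999 read 47.3%, 42.5% and 41.9% against 64.4%, 70.8% and 71.5% (adjusted p = 0.110). Both tiles were picked for having no overlap between libraries, so the separation of the groups there is no result of its own.

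The tile at chr7:20410000-20410999 lies closest to a placed promoter, 2396 bp upstream of Bcl3, an atypical inhibitor of NF-kappaB and a proto-oncogene. It read 21.8%, 23.0% and 37.2% in Nras G12D and 55.9%, 65.8% and 63.3% in Tet2 knockout, higher by 34.3 points (adjusted p = 0.306). The other 4 higher tiles lie on chromosomes 5 (2 tiles), 6 and 10. They were higher by 22.3 to 30.4 points. All 8 had intermediate group means in Nras G12D, from 27.3% to 43.9%. They were picked for their rise on these same values, so this shared level is no separate result.

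The 8 lower tiles had smaller differences, from -18.2 to -10.3 points, and their adjusted p ran from 0.321 to 0.802. The first, chr4:55021000-55021999, read 96.5%, 96.8% and 96.9% in Nras G12D and 84.3%, 72.4% and 79.1% in Tet2 knockout. Within 1 Mb of it, 17 CpGs were listed in 1 group only, and the part of local sequence differences in this value was not tested. At chr8:122110000-122110999 the Nras libraries read 12.1%, 13.9% and 18.8% and each Tet2 library read 0%. On the fewest reads of a library there, 116, a count of 0 allows up to 2.59% (3 reads of the total; this and the limits below cover counting error only).

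Another lower tile, chr7:150649000-150649999, read 24.5%, 31.0% and 35.7% in Nras G12D and 16.4%, 22.3% and 14.1% in Tet2 knockout, a difference of -12.8 points (adjusted p = 0.682) and of -19.2 points at equal coverage. The nearest promoter that could be placed was that of Phlda2, an imprinted gene that restrains growth of the placenta. The tile lies 38929 bp downstream of that start, and genes that were not placed may lie closer. The nonleukemic double mutants read 23.0%, 18.5% and 18.2% there, close to the Tet2 knockout. The tile at chr5:112055000-112055999 differed by -14.5 points, and by -4.49 points at equal coverage. That at chr12:53517000-53517999 differed by -10.3 points, and by -3.87 points without the Tet2 libraries that list Y positions.

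Promoters were read where the CpG spacing of a RefSeq promoter sequence (GRCm38.p6; 250 bases before and 50 after the start) matched the listed positions at 1 place of the chromosome. This gave 6004 promoters with at least 3 tested CpGs. Since a match needs many listed CpGs, it favours island promoters, and 96.2% of the promoters were under 20%. The window sequences of 4 promoters are shown because their values carry this section: Igf2r and Plagl1, which are imprinted, Arhgef10l, whose difference was the largest of the promoters named, and Fam229a, the only one lower. They were picked after their values were seen, and Plagl1 lies outside the naming rule. The 250 bases before the start are given on the gene's strand, 5′ to 3′, with tested CpGs in capitals. Placements in mm9 are chr17:12962573-12962822 (minus strand) for Igf2r, chr10:12810388-12810637 (plus) for Plagl1, chr4:140221803-140222052 (minus) for Arhgef10l and chr4:129168184-129168433 (plus) for Fam229a.
Igf2r: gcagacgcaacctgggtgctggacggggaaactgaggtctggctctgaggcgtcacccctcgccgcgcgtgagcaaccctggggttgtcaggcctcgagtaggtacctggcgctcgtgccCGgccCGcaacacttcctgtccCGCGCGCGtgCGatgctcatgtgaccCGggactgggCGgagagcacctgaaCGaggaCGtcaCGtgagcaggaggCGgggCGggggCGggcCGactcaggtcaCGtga
Plagl1: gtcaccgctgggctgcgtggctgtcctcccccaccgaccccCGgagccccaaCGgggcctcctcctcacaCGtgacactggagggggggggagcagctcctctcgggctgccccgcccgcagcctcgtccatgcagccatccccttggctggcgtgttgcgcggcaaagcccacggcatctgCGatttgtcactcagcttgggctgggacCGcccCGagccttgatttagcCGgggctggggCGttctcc
Arhgef10l: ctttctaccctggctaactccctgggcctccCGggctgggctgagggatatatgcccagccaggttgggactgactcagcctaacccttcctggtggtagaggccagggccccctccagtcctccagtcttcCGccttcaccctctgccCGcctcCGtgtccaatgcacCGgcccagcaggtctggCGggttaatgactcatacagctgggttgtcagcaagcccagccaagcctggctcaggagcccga
Fam229a: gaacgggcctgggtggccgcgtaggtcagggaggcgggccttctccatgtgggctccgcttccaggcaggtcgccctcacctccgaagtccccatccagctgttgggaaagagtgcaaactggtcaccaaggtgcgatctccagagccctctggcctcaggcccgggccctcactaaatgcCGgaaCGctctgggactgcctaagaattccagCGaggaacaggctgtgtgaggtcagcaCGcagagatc

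No promoter passed the rule used for tiles (0.0% in each direction), with the quasi-binomial model or with limma. At an unadjusted p under 0.05, 102 promoters were higher (1.70%) and 17 lower (0.283%) in Tet2 knockout, and limma gave 167 and 109. Libraries did not overlap and differed by at least 10 points at 10 promoters higher (0.167%) and 1 lower (0.0167%). The 109 intermediate promoters read 41.5%, 39.9% and 40.1% in Nras G12D and 42.2%, 47.8% and 41.9% in Tet2 knockout. The difference was 3.46 points without overlap (exact permutation p = 0.1, two-sided, n = 3 each). Tet2 replicates 1 and 3 stood only just above Nras replicate 1, and Tet2 replicate 2 carried most of the difference. Promoters under 20% differed by 0.130 points, with overlap. Most promoters read here were thus near 0 in both genotypes. The few of intermediate level leaned the same way as the tiles, mostly through Tet2 replicate 2.

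Igf2r, the imprinted receptor that takes up insulin-like growth factor 2 for degradation, had the lowest p of the named promoters. Over 19 tested CpGs its promoter read 27.3%, 29.1% and 14.3% in Nras G12D and 43.5%, 44.9% and 44.0% in Tet2 knockout. The Tet2 libraries were close together. The rule that named this promoter asked for no overlap, and the difference was 20.6 points (adjusted p = 0.824, unadjusted p = 0.000275, quasi-binomial model). The double mutants read 37.9%, 36.3% and 28.0% without leukemia and 34.02%, 24.81% and 30.04% with it.

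Along the Igf2r window, 18 of 19 CpGs were higher in Tet2 knockout. At the start itself the libraries read 22.1%, 16.0% and 12.2% in Nras G12D and 52.9%, 44.2% and 44.5% in Tet2 knockout, without overlap. Farther out the libraries diverged within a group. At position -106 from the start, Nras replicate 3 read 0% and the other Nras libraries 40% and 43.8%, while at -72 it read 30.9%. Tet2 replicate 2 read 82.2% at -72 and 4.30% at -125. Neighbouring CpGs read on the same fragments moved in blocks, on 50 to 358 reads per CpG and library, and the 19 CpGs are not 19 independent values.

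**Figure D4:**
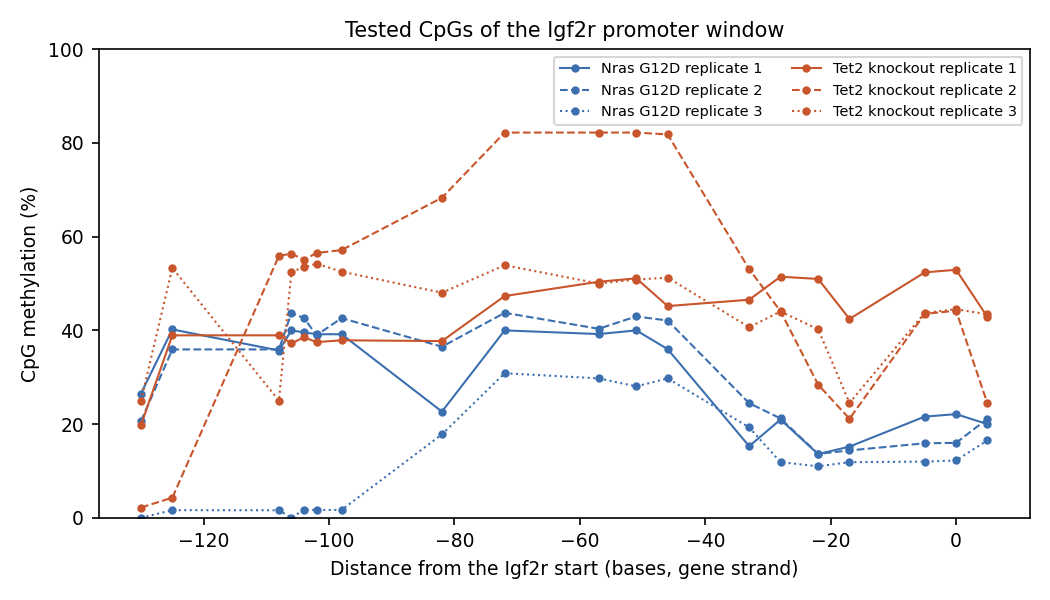
Methylation in percent of the 19 tested CpGs of the Igf2r promoter window (vertical axis) against distance from the start in bases on the gene's strand (horizontal axis), 1 line per library. From -82 to 5 every Tet2 knockout library lies above every Nras G12D library, and farther out they overlap.

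Plagl1, an imprinted zinc finger gene that restrains cell growth, read 25.2%, 26.1% and 23.6% in Nras G12D and 31.1%, 31.2% and 32.8% in Tet2 knockout over 15 CpGs. The groups did not overlap, and the difference was 6.75 points (unadjusted p = 0.0239, adjusted p = 1, quasi-binomial model). Its 3 outermost CpGs, at -209, -198 and -180 from the start, differed by 25.5 to 31.2 points, while 4 of the 15 CpGs were lower in Tet2 knockout. Reads per CpG and library ran down to 11 in this window.

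The promoter of Arhgef10l read 34.2%, 40.6% and 43.0% in Nras G12D and 65.0%, 61.8% and 58.0% in Tet2 knockout, higher by 22.3 points (adjusted p = 1). Each of its 6 CpGs was higher in the mean, but at -101 from the start the libraries overlapped. These CpGs make up the value on which the promoter was picked and are not independent. The nonleukemic double mutants, at 43.7%, 41.4% and 16.4%, did not share the high level. Muc20, a membrane mucin, read 54.6%, 44.6% and 58.9% against 72.0%, 72.3% and 72.8%, higher by 19.7 points (adjusted p = 1).

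Crb2, a polarity gene, read 64.6%, 70.3% and 64.0% in Nras G12D and 77.5%, 74.3% and 84.0% in Tet2 knockout, higher by 12.2 points. The other higher promoters named by the rule were Gm12992, Gm13420, Fam166c and Ube2u, by 11.7 to 16.6 points. Fam166c had 8 CpGs listed in 1 group only within 1 Mb, and its 14.04 points were 1.71 points without the Tet2 libraries that list Y positions. Gm13420 was higher by 11.7 points, and by 7.41 at equal coverage.

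Fam229a read 67.3%, 63.7% and 66.7% in Nras G12D and 54.6%, 44.1% and 43.5% in Tet2 knockout. It was the only promoter lower by at least 10 points without overlap, 18.5 points below Nras G12D on average (Tet2 knockout minus Nras G12D -18.5, adjusted p = 1). In the mean 7 of its 8 CpGs were lower, but at most of them the libraries overlapped. These CpGs make up the value on which the promoter was picked and are not independent. The difference was -12.0 points without Tet2 replicate 3 and -11.6 points at equal coverage. The predicted gene Gm41845 had the lowest adjusted p of all promoters, 0.0944. It read 0.192%, 0.772% and 0.0306% in Nras G12D and 8.51%, 4.06% and 10.3% in Tet2 knockout, and it was chosen here for that p after the values were seen. Its groups did not overlap, and its difference was under 10 points.

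**Figure D5:**
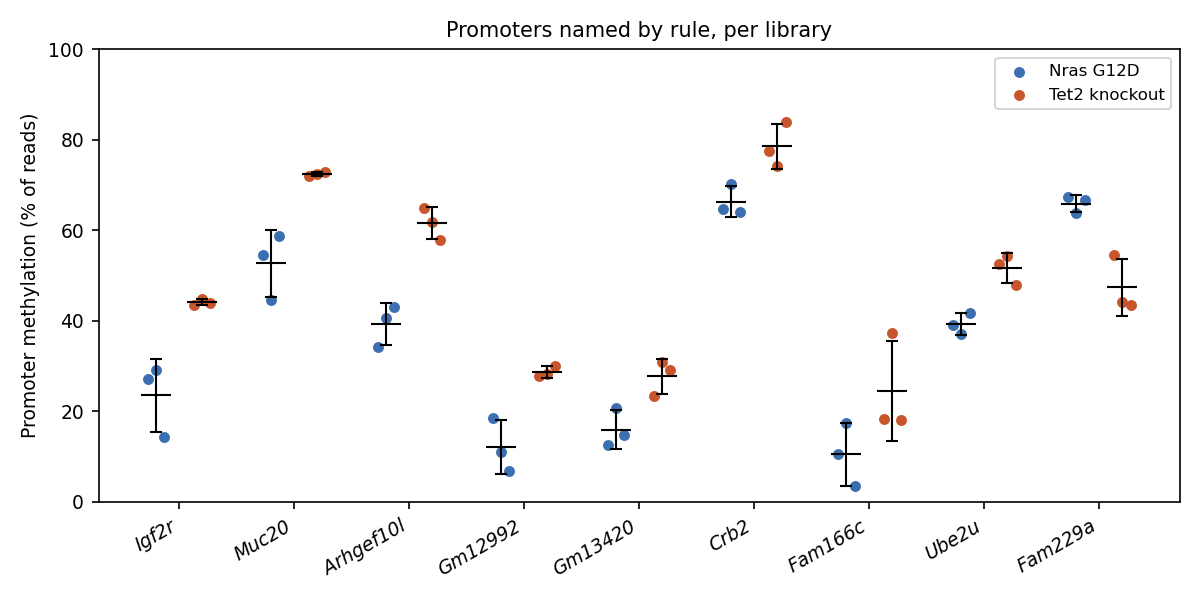
Promoter methylation in percent of reads (vertical axis) in the 6 libraries for the 9 promoters named by rule (horizontal axis). Points are libraries, long bars are group means and error bars are SD (n = 3); Fam229a is the only promoter of these that is lower in Tet2 knockout.

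Imprinted genes are expressed from 1 parental copy, and many carry methylation on 1 parental copy only. The reads were not separated by parental copy here. Of 23 genes listed, 7 could be tested and 0 were called; limma called 0 promoters in all. Igf2r, Plagl1 and Igf2 were higher at an unadjusted p under 0.05 (against 1.70% of all promoters), and 3 of the 7 were higher without overlap (against 3.56% of all promoters higher and 3.33% lower). Igf2 read 0%, 0% and 0.577% in Nras G12D and 1.10%, 0.394% and 8.81% in Tet2 knockout, so its groups overlapped and Tet2 replicate 3 stood alone. The median difference of the list was 4.68 points, against 0.000685 points over all promoters and 3.55 points over the 109 of intermediate level. Of the 7, Inpp5f and Igf2 lay near 0 and Mcts2 near full methylation. Zrsr1, a splicing factor gene expressed from the paternal copy, read 40.96%, 42.53% and 31.3% in Nras G12D and 43.8%, 52.0% and 47.7% in Tet2 knockout. Gnas, a signalling G protein subunit, differed by 4.68 points with wide spread in both groups, and Mcts2 by -1.54 points.

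Germline genes, silenced by methylation in blood, gave 7 tested promoters of 23, with 0 called and a median difference of 0.674 points. Dazl, Ddx4, Tex101, Asz1 and Hsf5, genes of germ cells, had group means of 92.95% to 97.5% in both genotypes. Mael, which acts in transposon silencing, read 88.3%, 82.8% and 70.3% against 83.1%, 92.9% and 91.4%, with overlap. The meiotic cohesin gene Smc1b was higher in Tet2 replicate 2 alone, at 29.2%, and at 2.51% to 8.18% in the other 5 libraries.

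Promoters of blood regulators lay mostly near 0 in both genotypes. Few of them could be read: 5 of 20 stem cell transcription factors, 2 of 20 myeloid genes, 4 of 23 lymphoid genes, 2 of 19 erythroid and megakaryocyte genes and 2 of 18 growth factor receptors. By the quasi-binomial model 0 of them were called and 0 reached p under 0.05 before adjustment. Cebpa, the factor that drives granulocyte and monocyte fate, read 0%, 0% and 0.372% in Nras G12D and 0.590%, 0.435% and 0.581% in Tet2 knockout, values under the 1.74% that a count of 0 allows at its fewest reads, 172. Gata2, a factor of stem cell maintenance, had group means of 0.116% and 0.325%. Tcf7, a T lineage factor, was the highest of the lymphoid genes, at 12.57%, 11.03% and 13.5% against 10.9%, 13.0% and 9.82%, with overlap.

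Promoters of both mutated pathways were near 0 as well. Of the Ras and MAPK feedback genes, 11 of 34 were tested, 0 were called, and their differences ran from -0.292 to 0.883 points. Spry2, an inhibitor of receptor signalling to Ras, read 0% in 5 libraries and 0.644% in Tet2 replicate 1. Dusp6, the ERK phosphatase, was at 0% in 5 libraries as well. A count of 0 allows up to 0.676% and 0.674% at the fewest reads of these promoters, 444 and 445. Among 10 tested genes of DNA methylation enzymes, Tet1 read 0%, 0.343% and 0% against 0.731%, 3.11% and 0%, and Tet3 1.39%, 0.873% and 3.05% against 0.917%, 0.582% and 1.33%. Of 9 tested tumour suppressors that are methylated in myeloid leukemia and 15 developmental regulators bound by Polycomb, 0 were called, with median differences of -0.00965 and -0.149 points.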

How the data were processed

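Size-selected MspI fragments were bisulfite converted and sequenced from a single end, per the labels' protocols. The submitters' processing notes list Bismark, with no version given, and the build mm9 (NCBIM37). The deposited tables give, per CpG and strand, the coverage as a count of reads (at least 10) and the percent of reads with C and with T. PCR copies count as reads.

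Methylated and unmethylated reads were computed from coverage and percent, and the strands of a CpG were summed (31.9% were listed on both). Autosomal CpGs with at least 10 reads in all 6 libraries numbered 1016652; leaving out 45090 on chromosome 3 and those with coverage above a library's 99.9th percentile left 969433. Class means weight each CpG equally. Single CpGs, tiles and promoters were fitted with a quasi-binomial model on these 6 libraries, with the dispersion moderated as in limma's squeezeVar and floored at 1, an F test and Benjamini-Hochberg adjustment over all features. The prior spread was first specified over all features; after that version had been run on these data (0 calls), it failed on simulated data and was replaced by the prior from features at 5 to 95%. This raised the called CpGs from 0 to 2 and altered which tiles and promoters are named. Of 32851 RefSeq promoter sequences (GRCm38.p6), 18519 had at least 6 CpGs and 8414 matched 1 place, of which 8300 in RefSeq order were kept, an order filter added after the placements were seen. Reversed sequences, used as decoys, matched 1 place in 7.30%, before that filter. Named features are those without overlap, with at least 5 CpGs and 10 points, and the lowest p (8 per direction, called features first), and 2 members per gene list. Members, lists and tests were chosen with earlier results of these data known. Alternatives covered coverage, chromosomes, weights, classes, tiles, tests, replicate block and left-out libraries. Finer density steps, island distance, coverage classes, log odds, class contrasts, the share of the difference per class and the fits without Y-listing libraries were added after seeing the data. Software was R 4.3.3 with limma 3.58.1, and Python 3.11.15 with numba 0.67.0, pandas 2.3.3, SciPy 1.17.1, NumPy 2.4.6 and matplotlib 3.10.9.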

Additional observations from a re-analysis of the deposited data

Results flagged for a closer look

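Signals outside the tested autosomal CpGs set some libraries apart. Tet2 knockout replicate 1 listed 360 positions of the Y chromosome and replicate 2 listed 251, against at most 13 in the Nras G12D libraries. CpG-dense X chromosome CpGs were methylated at 3.23% in Tet2 knockout replicate 1 and 3.48% in replicate 2, far below the Nras G12D libraries. Genotype and sex chromosome content therefore cannot be told apart in these 2 libraries.

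Some CpGs were listed in the libraries of 1 group only. On chromosome 3, which carries both mutated genes and was not tested, 133 CpGs were listed only in Tet2 knockout and 254 only in Nras G12D libraries. Chromosomes 4 and 5 held 42 and 37 CpGs listed only in Tet2 knockout libraries.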

How the results depend on the processing

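Every alternative listed for the processing was run. None reversed the 25 tiles and promoters named by rule, but these were picked for having no overlap between libraries. Leaving out libraries could therefore hardly turn their sign, and a change of test does not alter the difference, so this is no check of them. The dense class reversed with the X chromosome included (-0.0870 points), and the class under 20% reversed without the Tet2 libraries that list Y positions (-0.0106). With the X chromosome, the classes under 20% and 20 to 80% differed by 0.0232 and 3.35 points. Without the Y-listing libraries, the 20 to 80% and sparse classes differed by 1.37 and 1.24 points, 0 CpGs and 33 tiles were called with 1 Tet2 library assumed to vary like the others, and with nonleukemic classes the 20 to 80% class differed by 3.12 points. Classes set on the leukemic double mutant gave 0.300 points under 20% and 3.23 points at 20 to 80%. Weighting by each library's own reads gave 3.44 points over all CpGs, 2.89 for sparse, 4.22 for middle and 0.323 for dense CpGs, and weights shared by the libraries gave 0.708 over all.

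Leaving out 1 replicate gave 0.0357 to 0.244 points under 20%, 3.52 to 5.67 at 20 to 80% and 0.719 to 1.69 over 80%, 0 to 271 called CpGs and 0 to 12 called tiles. Called CpGs numbered 7 at a coverage minimum of 20, 12 without the high-coverage filter, 15 with chromosome 3, 1 with separate strands and 0 with equal coverage, with all 12 libraries, with limma and with the prior from all features. With the replicate block 0 CpGs and 1 tile were called. Same-numbered libraries did not deviate together (correlations 0.00784, -0.00511 and -0.00054), and not every library correlated best with its own number. Correlations between libraries of different number were also near 0, from -0.0146 to 0.012. This therefore cannot decide whether the numbers pair samples. All 12 libraries called 3 tiles. Fisher's exact test on pooled reads, which ignores the spread between libraries, called 12357 CpGs, 4680 tiles and 28 promoters. With 10 reads, the minimum kept, a CpG moves in steps of 10 points.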
